A study of Mus musculus with 384 samples.

Results

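The genes described here are 8 members of the insulin-like growth factor (IGF) system and its imprinted locus: the ligands Igf1 and Igf2, the binding protein genes Igfbp3, Igfbp4, Igfbp5, Igfbp6 and Igfbp7, and the noncoding RNA H19. They were chosen by gene symbol, each symbol had 1 Ensembl identifier, and they are 8 of the 40594 genes present in both deposited tables. All 8 passed the filter on low values used for the background counts. The grouping was made with earlier results of these plates in view, among them their levels in the 2 sort gates, so the counts over the 8 genes are descriptions.

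The data come from FACS-seq of single mouse kidney cells, in which cells were sorted 1 to a well and each well gave 1 barcoded library. Wells of 2 gates were profiled, PDGFRB+ cells without CD45 (CD45-) and PDGFRB+ cells with CD45 (CD45+), CD45 being the common surface protein of leukocytes. Each gate had 2 batches, which makes 4 plates of 96 wells. PDGFRB is the platelet-derived growth factor receptor beta, a surface receptor of pericytes, fibroblasts and vascular smooth muscle cells. All mice were 8 weeks old. The well names of all groups include the letters UUO, left unexplained in the labels, and no unoperated or untreated group was analysed here. The labels tie no well to an animal or culture, so a plate is 1 sample, a well is not a replicate of its gate, and neither p-values nor standard errors are given.

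IGF1 and IGF2 are secreted growth factors that act through the type 1 IGF receptor, while the mannose 6-phosphate receptor encoded by Igf2r takes up IGF2 for degradation. IGF binding proteins carry the ligands in blood and tissue fluid, set how much of them reaches the receptor, and have effects of their own on cells and matrix. Igf2 and H19 lie side by side in an imprinted domain, with Igf2 expressed from the paternal and H19 from the maternal chromosome, and both are fetal genes that are mostly shut down in the mouse after birth.

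A well was kept with at least 10000 reads on genes and 500 genes with a read, which kept 93 and 93 CD45- wells and 92 and 90 CD45+ wells in batches 1 and 2. The kept wells of a plate summed to 29346719 and 31756482 reads in CD45- and to 26479862 and 28460094 reads in CD45+. Levels are CPM, counts scaled to a common total of reads on genes, taken from the sums over all kept wells of a plate or over a class of wells, and wells are numbered within a plate in the order of the sample list. Ratios are log2 ratios of CPM plus a pseudocount of 1, which understates the ratio of a gene near 0 in one group, and a gene was called higher or lower only where both batches gave a difference of 4-fold or more with the same sign. Wells of at least 50000 reads, 79 and 82 in CD45- and 76 and 78 in CD45+, were used for the classes, for counts of wells at 100 CPM and for thinned shares, while the median and highest wells of a plate are over all its kept wells. Every interval given is a 95% interval, exact Poisson for CPM and exact Clopper-Pearson for shares and for ratios of reads, and covers counting error only.

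The CD45- gate held different kinds of wells, which were grouped by marker genes that are not among the 8. A well was collagen-rich where Col1a1, Col1a2 and Col3a1, chains of fibrillar collagen, summed to at least 5000 CPM, which held for 40 and 38 wells in batches 1 and 2. It was endothelial-like where at least 3 of 8 endothelial genes (Pecam1, Cdh5, Kdr, Flt1, Emcn, Egfl7, Tie1, Plvap) reached 100 CPM, which held for 21 and 24 wells. No well met both rules, 12 of the other wells were contractile by Acta2, Tagln, Myl9 and Myh11, and 26 remained. Near the limits, 20 collagen-rich wells had a collagen sum of 5000 to under 10000 CPM and 5 other wells one of 2500 to under 5000 CPM, while 13 wells had exactly 3 endothelial markers and 13 had exactly 2. Collagen-rich wells had a median of 377510 and 470140 reads, against 275698 and 215980 reads in endothelial-like wells.

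Of the 2 sorted markers, Ptprc, which encodes CD45, followed the gates, at 0.136 and 0.976 CPM in CD45- and 469 and 303 CPM in CD45+. Pdgfrb stood at 294 and 219.6 CPM in CD45- and at only 0.113 and 5.73 CPM in CD45+, where 3 of 76 and 5 of 78 wells had a read, so the CD45+ wells carried little RNA of the receptor they were sorted on. In the CD45+ gate 135 of 154 wells were in none of the 3 marker classes. Of the 8 macrophage markers (Ptprc, Cd68, Csf1r, Adgre1, C1qa, C1qb, Lyz2, Mpeg1), a median of 5 reached 100 CPM in these wells in both batches. The other 19 CD45+ wells were 5 collagen-rich, 3 contractile and 11 endothelial-like wells. The haemoglobin genes Hbb-bs, Hba-a1 and Hba-a2 summed to a median of 5360 CPM in collagen-rich and 6906 CPM in endothelial-like CD45- wells of batch 1, with 1 endothelial-like well at 585821 CPM, and of 1839 and 3055 CPM in the same classes of batch 2. In the CD45+ wells of no marker class the medians were 2.41 and 14.7 CPM. Haemoglobin RNA was thus higher in CD45- wells, the direction of the gate calls below, and its part in them was not tested. Wells of 10000 to 50000 reads also held reads of the members: all 14 such CD45- wells of batch 1 reached 100 CPM of Igfbp7, with a median of 713 CPM, and 12 of the 14 had an Igfbp6 read. Reads carried between wells of a plate were not tested for, and the shares of wells with a read given below include such low values.

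Between the gates, 4 of the 8 genes were called higher in CD45-, Igfbp3, Igfbp5, Igfbp6 and Igf2, and 0 were called lower. Of the 12882 genes tested, 12.9% were called higher in CD45- and 4.33% lower. The median log2 ratio of the 8 genes was 3.03 in batch 1 and 3.22 in batch 2, beside 0.39 and 0.56 over all genes tested. Igfbp4 and Igfbp7 missed the limit in 1 batch each, H19 missed it in batch 2, and Igf1 pointed in opposite directions in the 2 batches.

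**Figure D1:**
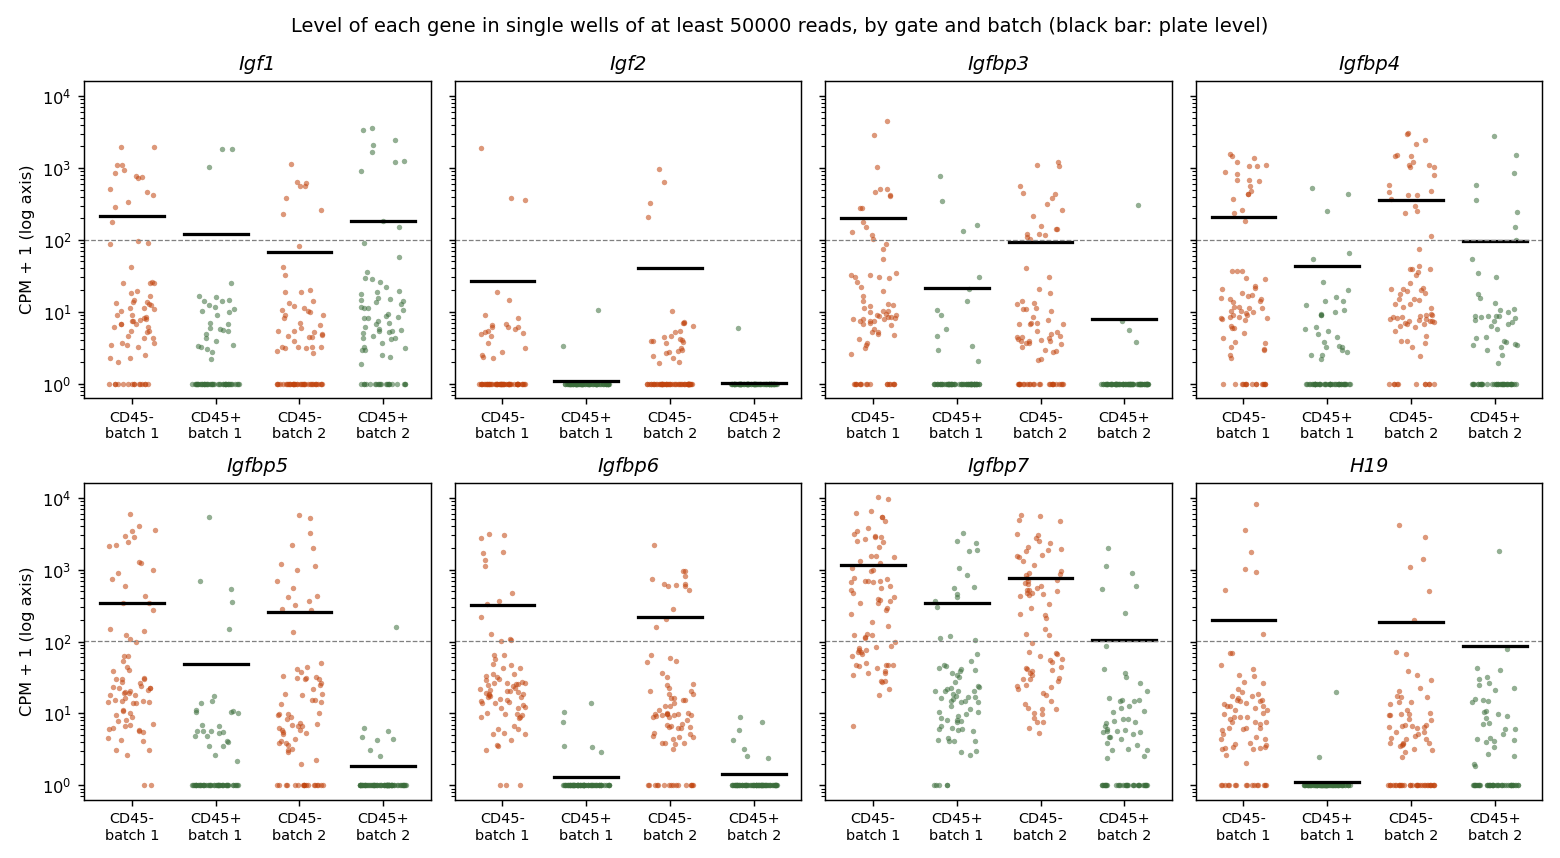
Level of each of the 8 genes in single wells of at least 50000 reads (points, CPM + 1 on a log axis), with CD45- and CD45+ side by side within each batch, the plate level over all kept wells as a black bar and 100 CPM as a dashed line. No CD45+ well reached 100 CPM of Igf2 or Igfbp6, whereas Igf1 had CD45+ wells of over 1000 CPM in both batches.

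Igf1, the main circulating and tissue IGF and a product of both mesenchymal cells and macrophages, stood at 214 and 65.8 CPM in CD45- and at 121 and 182 CPM in CD45+ in batches 1 and 2. Single CD45- wells ran from 0 CPM, with a median of 9.90 CPM and a highest of 1966 CPM, in batch 1 and from 0 CPM, with a median of 2.19 CPM and a highest of 1148 CPM, in batch 2. Single CD45+ wells had medians of 0 and 4.90 CPM and highest values of 1833 and 3607 CPM. The 2 gates therefore overlapped from well to well in both batches, and a minority of wells held nearly all reads. The log2 ratio of CD45- over CD45+ was 0.82 in batch 1 and -1.45 in batch 2, and 34.7% of all genes tested had ratios of opposite sign in the 2 batches. Without CD45+ well 95, which held 55.3% of the Igf1 reads of its plate, the batch 1 ratio was 1.91.

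The Igf1 wells of the CD45+ gate were ordinary members of that gate by their markers. In batch 1, 3 of 76 CD45+ wells reached 100 CPM, at 1038, 1828 and 1833 CPM, and in batch 2, 10 of 78 did, from 149 to 3607 CPM with a median of 1451 CPM. All 13 were outside the collagen, contractile and endothelial classes. They had 5 to 7 of the 8 macrophage markers at 100 CPM in batch 1 and 3 to 8 in batch 2, against 1 to 7 and 1 to 8 in the wells below 100 CPM. Igfbp4 reached 100 CPM in 10 of the 154 CD45+ wells and Igf1 in 13. They shared 1 well, well 95 of batch 1, and counts this small do not show whether the genes keep apart.

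**Figure D2:**
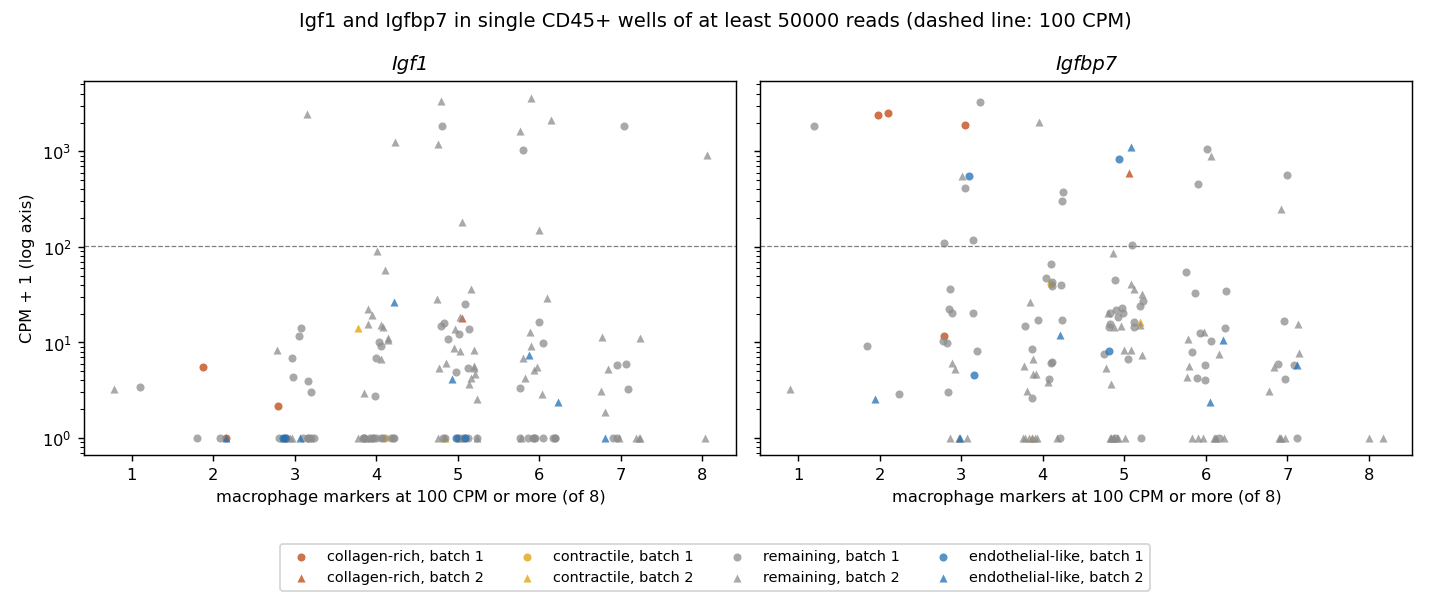
Igf1 (left) and Igfbp7 (right) in single CD45+ wells of at least 50000 reads (CPM + 1, log axis) against the number of the 8 macrophage markers at 100 CPM or more, with colour for the class and shape for the batch. All 13 wells above the dashed line at 100 CPM of Igf1 are grey, that is in none of the marker classes, while the Igfbp7 wells above it include collagen-rich and endothelial-like ones.

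Within the CD45- gate, Igf1 pooled over collagen-rich wells was 288 and 77.9 CPM, against 34.7 and 26.8 CPM in endothelial-like wells of batches 1 and 2. Of the collagen-rich wells 17 of 78 reached 100 CPM (21.8%, interval 13.2 to 32.6%), against 2 of 45 endothelial-like wells (4.44%, interval 0.543 to 15.1%). Igf1 was thus a gene of a minority of wells in every class, and 3 of the 12 contractile wells were among those with over 1000 CPM, against 1 of the 78 collagen-rich wells. Those 3 contractile wells were all among the 10 of batch 1, and the 2 contractile wells of batch 2 had 0 Igf1 reads. The log2 ratios of collagen-rich over endothelial-like wells were 3.02 and 1.50, short of the limit in batch 2. Without endothelial-like well 92 the batch 2 ratio was 3.71 and the gene was called, and in batch 1 the ratio was 2.41 without collagen-rich well 35 and 4.54 without endothelial-like well 69.

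Igf2, the fetal IGF, was listed with few reads anywhere, at 25.8 and 39.1 CPM in CD45- and at 0.0755 and 0.0351 CPM in CD45+. The CD45+ values rest on 2 reads and 1 read, so the plain ratio of the gates was 342 with an interval of 94.3 to 2829 in batch 1 and 1113 with an interval of 199 to 43999 in batch 2. On the log2 scale with the pseudocount the ratios were 4.64 and 5.28. The reads came from very few wells: 3 of 79 and 4 of 82 CD45- wells reached 100 CPM, and 1 well held 59.2% of the reads of batch 1 and 48.7% of those of batch 2. Leaving out well 15 in batch 1 gave a ratio of 3.43 and leaving out well 42 in batch 2 gave 4.37, so the gene was still called in CD45-. With each well thinned to 50000 reads, 13.9 and 9.76% of CD45- wells had an Igf2 read, against 1.32% and 0% of CD45+ wells, where 0 of 78 wells allows a share of up to 4.62%.

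The 7 CD45- wells with Igf2 at 100 CPM were 5 collagen-rich and 2 endothelial-like ones. Class levels were 43.6 and 38.1 CPM in collagen-rich and 1.25 and 85.5 CPM in endothelial-like wells of batches 1 and 2, with log2 ratios of 4.31 and -1.15. The sign of the batch 2 ratio lay with single wells, since it was 1.21 without endothelial-like well 24 and -3.57 without collagen-rich well 42. In batch 1 the ratio was 3.02 without well 15. Both endothelial-like Igf2 wells, 24 and 36 of batch 2 with 629 and 208 CPM, had 5 and 4 of the 8 endothelial markers at 100 CPM and collagen sums of 484 and 701 CPM. The contractile genes Acta2, Tagln, Myl9 and Myh11 summed to 21115 CPM in well 24 and 490 CPM in well 36. The median of their class in batch 2 was 284 CPM, so well 24 also held contractile RNA.

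The binding protein genes encode secreted proteins, of which IGFBP3 carries most of the circulating IGF, IGFBP4 mainly holds IGF back, IGFBP5 also binds matrix, IGFBP6 prefers IGF2, and IGFBP7 binds IGFs only weakly and is a secreted protein of vessel walls and matrix. They lie on different chromosomes except Igfbp3 and Igfbp4, which are both on chromosome 11. By the GENCODE annotation of GRCm38, a build that the sources used here do not name for the deposited counts, Igfbp3 is at chr11:7206086-7213923, Igfbp4 at chr11:99041244-99054392, Igfbp5 at chr1:72857932-72874884, Igfbp6 at chr15:102144362-102149511 and Igfbp7 at chr5:77349240-77408041. The promoters of the 4 that differed most between the classes of CD45- wells, Igfbp4, Igfbp6 and Igfbp7 toward collagen-rich and Igfbp5 toward endothelial-like wells, are given here from RefSeq (GRCm38.p6), 250 bases before to 50 after the start, with CG dinucleotides in capitals.
Igfbp4 (chr11:99040994-99041293, plus strand): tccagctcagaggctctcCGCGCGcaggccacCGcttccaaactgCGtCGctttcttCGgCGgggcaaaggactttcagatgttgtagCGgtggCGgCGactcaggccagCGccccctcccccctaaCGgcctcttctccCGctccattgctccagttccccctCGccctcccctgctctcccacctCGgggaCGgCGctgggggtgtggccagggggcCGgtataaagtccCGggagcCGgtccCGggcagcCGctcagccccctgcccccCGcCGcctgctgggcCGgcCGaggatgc
Igfbp6 (chr15:102143936-102144235, plus strand): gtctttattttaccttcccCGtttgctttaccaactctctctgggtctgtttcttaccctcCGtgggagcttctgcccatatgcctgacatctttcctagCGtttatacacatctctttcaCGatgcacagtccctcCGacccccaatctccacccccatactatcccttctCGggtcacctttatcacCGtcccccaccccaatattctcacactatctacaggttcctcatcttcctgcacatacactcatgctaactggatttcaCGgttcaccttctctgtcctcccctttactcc
Igfbp7 (chr5:77407996-77408295, minus strand): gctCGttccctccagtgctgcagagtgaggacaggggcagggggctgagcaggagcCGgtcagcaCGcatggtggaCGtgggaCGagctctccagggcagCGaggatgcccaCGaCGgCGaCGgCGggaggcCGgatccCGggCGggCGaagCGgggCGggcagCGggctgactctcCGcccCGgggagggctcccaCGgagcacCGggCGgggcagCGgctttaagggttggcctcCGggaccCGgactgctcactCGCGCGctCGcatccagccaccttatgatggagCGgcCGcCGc
Igfbp5 (chr1:72874816-72875115, minus strand): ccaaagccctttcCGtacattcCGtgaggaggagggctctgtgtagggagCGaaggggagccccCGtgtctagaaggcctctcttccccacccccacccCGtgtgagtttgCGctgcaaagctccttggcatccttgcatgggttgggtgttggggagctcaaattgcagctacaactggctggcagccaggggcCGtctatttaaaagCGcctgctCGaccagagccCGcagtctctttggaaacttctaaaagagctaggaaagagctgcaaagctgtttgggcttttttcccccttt

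The 4 promoters held 27, 8, 33 and 10 CG dinucleotides, in the order printed, beside a median of 7 over the 32851 mouse promoters of that table. Igfbp4 and Igfbp7, both higher in collagen-rich wells, were CG-rich, with as many or more CG than 85.8 and 92.3% of promoters, whereas Igfbp6, also higher there, was near the middle at 54.2% and Igfbp5 at 58.6%. The letters TATAAA on either strand were in the Igfbp4 and Igfbp6 windows and in 13.6% of all promoters. The RefSeq start used for Igfbp6 lies upstream of its GENCODE start.

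Igfbp3 stood at 203 and 93.6 CPM in CD45- and at 20.5 and 6.96 CPM in CD45+, with log2 ratios of 3.24 and 3.57. In CD45- its median well had 8.14 and 3.60 CPM and its highest 4505 and 1195 CPM, against medians of 0 CPM and highest wells of 778 and 307 CPM in CD45+. The ranges of the gates overlapped, and the level of a plate rested on few wells. Well 12 held 46.2% of the CD45- reads of batch 1, and the ratio was 2.38 without it. In CD45+ an endothelial-like well was the main source in each batch: without well 50 the batch 1 ratio was 3.94, and without well 68, which held 98.5% of the reads, the batch 2 ratio was 6.42. Igfbp3 was called in every one of these cases.

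Between the classes of CD45- wells Igfbp3 did not keep to one side when reads were pooled. It stood at 318 and 114 CPM in collagen-rich wells and 75.4 and 131 CPM in endothelial-like wells of batches 1 and 2. The log2 ratios were 2.06 and -0.20. By the mean of the wells' own CPM it had 262 and 129 in collagen-rich wells, against 89.2 and 96.8 in endothelial-like wells. The batch 2 log2 ratio of these means was 0.41. The shares of wells at 100 CPM lay side by side, at 20 of 78 collagen-rich wells (25.6%, interval 16.4 to 36.8%) and 12 of 45 endothelial-like wells (26.7%, interval 14.6 to 41.9%). None of the 26 remaining wells reached that level (upper limit 13.2%) and 1 of the 12 contractile wells did. The pooled ratio was 1.08 in batch 1 without collagen-rich well 12 and 1.41 in batch 2 without endothelial-like well 72.

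Igfbp4 stood at 206 and 359 CPM in CD45- and at 41.7 and 95.7 CPM in CD45+, and its log2 ratios of 2.28 and 1.90 fell short of the 4-fold limit in batch 2. The CD45- median wells had 12.7 and 16.4 CPM and the highest 1547 and 3262 CPM, against medians of 0 and 1.25 CPM and highest wells of 533 and 2805 CPM in CD45+. The highest CD45+ well of batch 2, well 39, was thus within the range of the CD45- wells and had 6 of 8 macrophage markers at 100 CPM. Leaving out any one of 5 CD45+ wells of batch 2 made Igfbp4 a called gene: the ratio was 2.09 without well 18, 2.30 without well 39, 2.10 without well 60, 2.28 without well 69 and 2.01 without well 96. Only well 18 of these was collagen-rich.

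Among CD45- wells Igfbp4 was mostly a gene of the collagen-rich ones. Levels were 325 and 570 CPM in collagen-rich wells, against 78.1 and 29.8 CPM in endothelial-like wells, with log2 ratios of 2.04 and 4.21. At 100 CPM stood 38 of 78 collagen-rich wells (48.7%, interval 37.2 to 60.3%), against 3 of 45 endothelial-like wells (6.67%, interval 1.4 to 18.3%), 2 of 26 remaining wells and 0 of 12 contractile wells. The call between the classes was at the edge in batch 1: without any one of 20 wells the ratio was 1.83 to 2.00 and the call was lost. Without endothelial-like well 5, which held 50.5% of the reads of its class, it was 2.97, and without endothelial-like well 43 it was 2.71. In batch 2 it was 5.78 without endothelial-like well 75.

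Igfbp5 stood at 339 and 254 CPM in CD45- and at 47.1 and 0.878 CPM in CD45+, the last from 25 reads with an interval of 0.568 to 1.30 CPM. The log2 ratios were 2.82 and 7.09. In batch 1 the highest wells of both gates were alike, at 5847 CPM in CD45- and 5412 CPM in CD45+, and the ratio was 3.56 without that CD45+ well, well 61, which held 41.2% of the reads. In batch 2 the highest wells were 5845 CPM in CD45- and 159 CPM in CD45+. Of the thinned wells 53 of 79 and 41 of 82 in CD45- had an Igfbp5 read, against 11 of 76 and 1 of 78 in CD45+.

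Igfbp5 was the binding protein gene whose pooled level leaned toward endothelial-like over collagen-rich wells in both batches. It stood at 215 and 104 CPM in collagen-rich wells, against 631 and 477 CPM in endothelial-like wells. The log2 ratios were -1.55 and -2.19, so that it was past 4-fold in batch 2 only and was not called. Without endothelial-like well 25 the batch 2 ratio was -1.64, under 4-fold. The remaining wells, pooled, stood at 620 and 529 CPM, but a single well held 56.5% (batch 1, well 1) and 67.7% (batch 2, well 11) of their Igfbp5 reads. Without its top well the class stood at 287 and 182 CPM, and the endothelial-like wells without theirs at 532 and 324 CPM. The shares of wells at 100 CPM had overlapping intervals: 17 of 78 collagen-rich wells and 13 of 45 endothelial-like wells reached 100 CPM (21.8%, interval 13.2 to 32.6%, against 28.9%, interval 16.4 to 44.3%). The other classes lay between them, with 3 of 12 contractile wells (25%) and 7 of 26 remaining wells (26.9%). At 1000 CPM or more stood 5 collagen-rich, 9 endothelial-like and 4 remaining wells. The highest of them were 3562 CPM in collagen-rich, 5235 CPM in endothelial-like and 5847 CPM in remaining wells.

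Igfbp6 was nearly absent from the CD45+ gate in both batches. It stood at 323 and 219 CPM in CD45- and at 0.302 and 0.457 CPM in CD45+, where it had 8 and 13 reads in all and intervals of 0.130 to 0.595 and 0.243 to 0.781 CPM. The highest wells were 3175 and 2184 CPM in CD45- and 12.97 and 7.84 CPM in CD45+. The log2 ratios were 7.96 and 7.24, and leaving out any 1 well moved neither by 1.5 times. Thinned to 50000 reads, 65.8 and 47.6% of CD45- wells had a read, against 2.63 and 1.28% of CD45+ wells.

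In collagen-rich wells Igfbp6 averaged 537 and 335 CPM, against 26.2 and 8.38 CPM in endothelial-like wells, with log2 ratios of 4.31 and 5.16, and it was called. At 100 CPM stood 23 of 78 collagen-rich wells (29.5%, interval 19.7 to 40.9%), against 3 of 45 endothelial-like wells (6.67%, interval 1.4 to 18.3%), and all 8 wells of over 1000 CPM were collagen-rich. Even so the median collagen-rich well had only 22.2 and 10.8 CPM, near the 19.3 and 5.77 CPM of the median endothelial-like well. The class difference therefore came from a subset of the collagen-rich wells. All 21 endothelial-like wells of batch 1 had at least 1 Igfbp6 read, and whether these low values were reads carried between wells was not tested.

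Igfbp7 was detected in more CD45- wells than any other of the 8 genes. It stood at 1171 and 762 CPM in CD45- and at 345 and 103 CPM in CD45+, with log2 ratios of 1.76 and 2.87, and it was not called because batch 1 fell short. The CD45- wells had medians of 386 and 290 CPM and highest values of 10193 and 5688 CPM, against medians of 20.2 and 3.52 CPM and highest values of 3270 and 2007 CPM in CD45+. At 50000 reads 96.2 and 87.8% of CD45- wells had a read, against 56.6 and 26.9% of CD45+ wells. In batch 1 the gene was called without CD45+ well 5, a collagen-rich well, with a ratio of 2.01, or without well 82, with a ratio of 2.00. Well 82 had a collagen sum of 4446 CPM, just under the limit for that class. An antisense neighbour, Polr2b, overlaps the end of Igfbp7 and had 2684 reads in all wells beside 70680 of Igfbp7, and whether the counts used strand is not stated.

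Among CD45- wells Igfbp7 followed the collagen classes in every batch. It stood at 1794 and 1151 CPM in collagen-rich wells, against 133 and 84.7 CPM in endothelial-like wells, with log2 ratios of 3.74 and 3.75. The median wells had 1118 and 783 CPM in the collagen-rich class, against 67.1 and 31.1 CPM in the endothelial-like class. At 100 CPM stood 67 of 78 collagen-rich wells (85.9%, interval 76.2 to 92.7%), 7 of 12 contractile wells, 13 of 26 remaining wells and 10 of 45 endothelial-like wells (22.2%, interval 11.2 to 37.1%). For Igfbp7, unlike Igfbp6, the median wells of the classes were therefore far apart as well. Without endothelial-like well 5, where the contractile genes summed to 14301 CPM, the batch 2 ratio was 4.41.

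**Figure D3:**
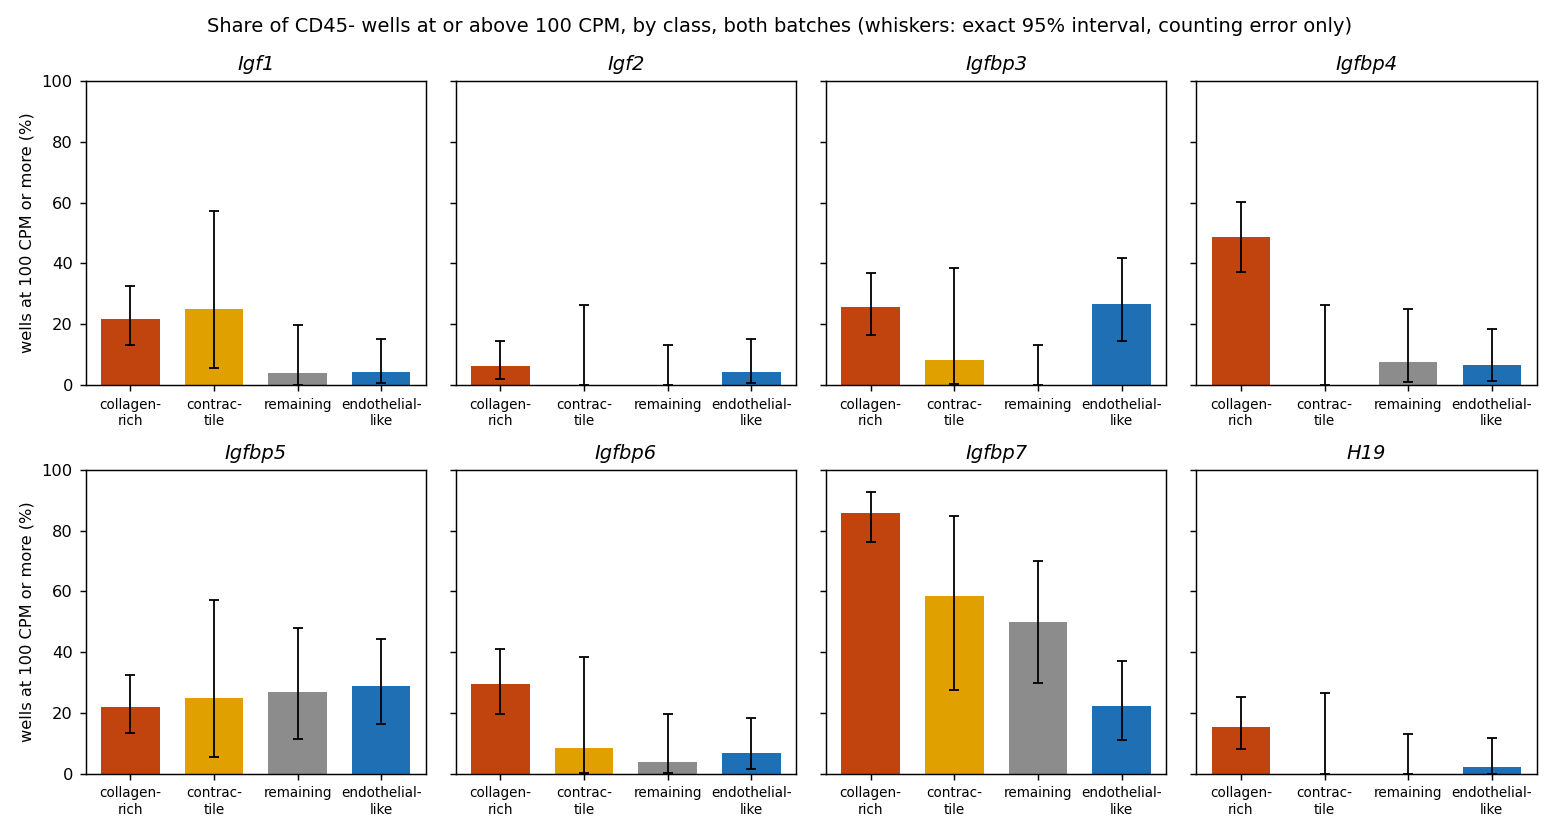
Share of CD45- wells of at least 50000 reads at or above 100 CPM of each gene, in collagen-rich, contractile, remaining and endothelial-like wells of both batches together (bars, percent), with exact 95% intervals for counting error as whiskers. Igfbp7 reached 85.9% of collagen-rich and 22.2% of endothelial-like wells, Igfbp4 48.7 and 6.67%, while Igfbp3 had 25.6 and 26.7% and Igfbp5 21.8 and 28.9%.

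Across the classes, 4 of the 8 genes were called higher in collagen-rich than in endothelial-like wells, Igfbp4, Igfbp6, Igfbp7 and H19, and 0 were called lower. Over the 11444 genes tested between these classes, 12.2% were called higher and 4.39% lower. The median log2 ratio of the 8 genes was 3.38 in batch 1 and 2.43 in batch 2, beside 0.18 and 0.14 over all genes tested. Igfbp3 and Igf2 had ratios of opposite sign in the 2 batches, as had 36.2% of the genes tested.

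**Figure D4:**
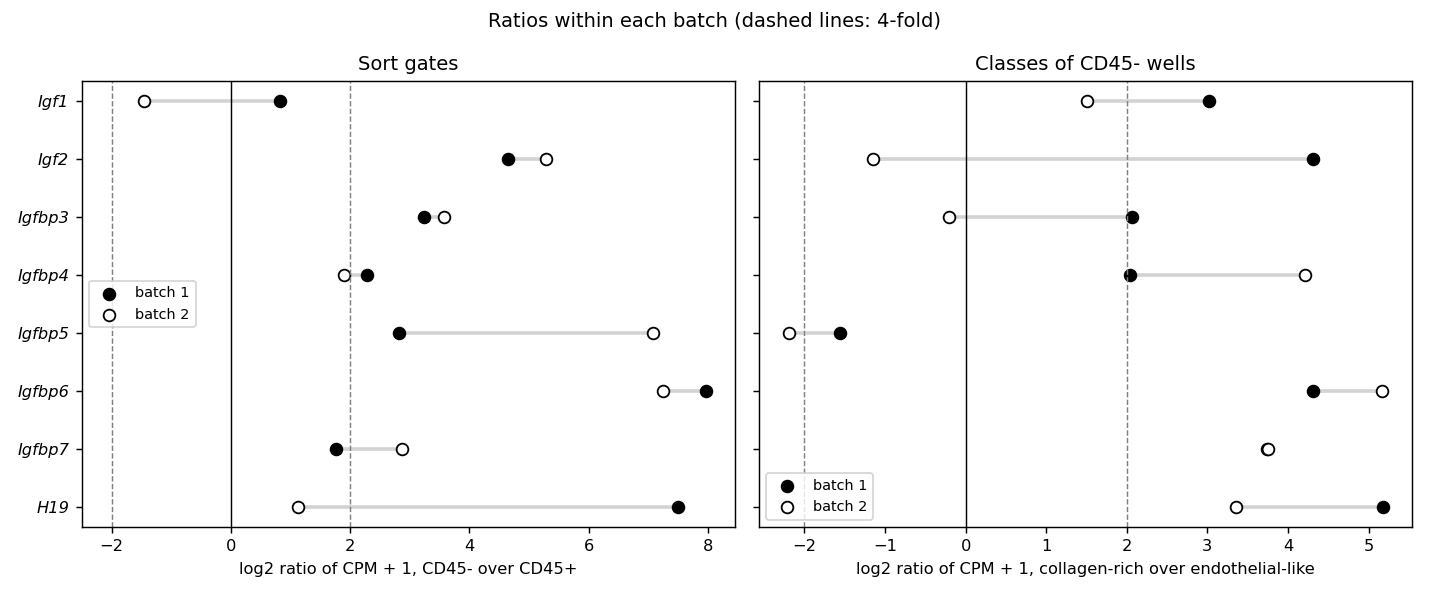
Log2 ratio of CPM + 1 of each gene in batch 1 (filled) and batch 2 (open), CD45- over CD45+ on the left and collagen-rich over endothelial-like CD45- wells on the right, with dashed lines at 4-fold. Igfbp6 lies beyond 4-fold in both batches in both panels, at 7.96 and 7.24 between the gates and 4.31 and 5.16 between the classes, and Igfbp5 lies on opposite sides of 0 in the 2 panels.

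H19, a long noncoding RNA that is spliced and polyadenylated and also serves as the precursor of miR-675, stood at 201 and 186 CPM in CD45- and at 0.113 and 84.5 CPM in CD45+. It lies at chr7:142575529-142578143 on the minus strand, beside Igf2 at chr7:142650766-142666816. The mature miRNAs are shown with the seed, bases 2 to 8, in capitals, to mark what part of the transcript the name refers to.
mmu-miR-675-5p: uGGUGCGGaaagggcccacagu
mmu-miR-675-3p: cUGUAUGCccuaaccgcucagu

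The separate Mir675 entry of the tables had 0 reads beside 14223 reads of H19 in all wells. That entry overlaps H19 on the same strand, and how reads on both were counted is not stated here. The values are of the H19 entry, and the mature miRNAs were not measured. The seeds of the 2 arms differ.

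The 2 batches differed for H19 in the CD45+ gate. In batch 1 it had 3 reads in all CD45+ wells, and the plain ratio of CD45- over CD45+ was 1777 with an interval of 608 to 8618, a log2 ratio of 7.51 with the pseudocount. In batch 2 the log2 ratio was 1.13. Of the 2405 CD45+ reads of that batch, 2286 (95.1%) were in well 18, at 1835 CPM. That well was the only collagen-rich well of its plate, with a collagen sum of 48128 CPM, and had 5 of 8 macrophage markers at 100 CPM. Without it the ratio was 5.12 and H19 was called in CD45-, as was Igfbp4. The other 119 reads were spread over 36 wells, of which 1, of under 50000 reads, reached 100 CPM. Without CD45- well 85 the batch 2 ratio was 0.33.

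Among CD45- wells H19 was a gene of few wells, nearly all collagen-rich. Levels were 339 and 298 CPM in collagen-rich wells, against 8.41 and 28.2 CPM in endothelial-like wells, with log2 ratios of 5.18 and 3.36. At 100 CPM stood 12 of 78 collagen-rich wells (15.4%, interval 8.21 to 25.3%), against 1 of 45 endothelial-like wells (2.22%, interval 0.0562 to 11.8%) and 0 of 12 contractile and 0 of 26 remaining wells. The single endothelial-like well, well 29 of batch 2, had 497 CPM, and the batch 2 ratio was 5.02 without it and 2.53 without collagen-rich well 85. The median collagen-rich well had 4.98 and 4.04 CPM, so most wells of the class were low.

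H19 and Igf2 shared some of their highest wells. Of the 5 collagen-rich wells with Igf2 at 100 CPM, 4 also had H19 at over 1000 CPM: well 15 of batch 1 had 1911 CPM of Igf2 and 8087 CPM of H19, well 78 of batch 1 had 376 and 3591 CPM, well 42 of batch 2 had 969 and 2856 CPM, and well 39 of batch 2 had 328 and 1085 CPM. The fifth, well 84 of batch 1, had 356 CPM of Igf2 and 3.71 CPM of H19. Read the other way, only 4 of the 12 collagen-rich H19 wells held Igf2 at 100 CPM. The highest H19 well of batch 2, well 85 with 4154 CPM, had 3.22 CPM of Igf2. Both endothelial-like Igf2 wells had little H19, at 5.90 and 2.64 CPM. The wells are few and come from 2 plates, and whether they share an animal is not stated.

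Most H19 wells also held Igfbp6. Of the 12 collagen-rich H19 wells 9 reached 100 CPM of Igfbp6 (75% of them, 39.1% of the 23 Igfbp6 wells), against 14 of the other 66 wells of the class, and 7 reached 100 CPM of Igfbp4. Igfbp5 reached it in 1 of the 12. Over the 79 and 82 CD45- wells, Igfbp6 was among the 3 genes whose level was most like that of H19, with a Spearman coefficient of 0.35 and 0.28 across wells, after Mfap4 (0.33 and 0.34). Such coefficients rest on wells of 1 plate that share library preparation and differ in depth, and values this low are given as a description.

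**Figure D5:**
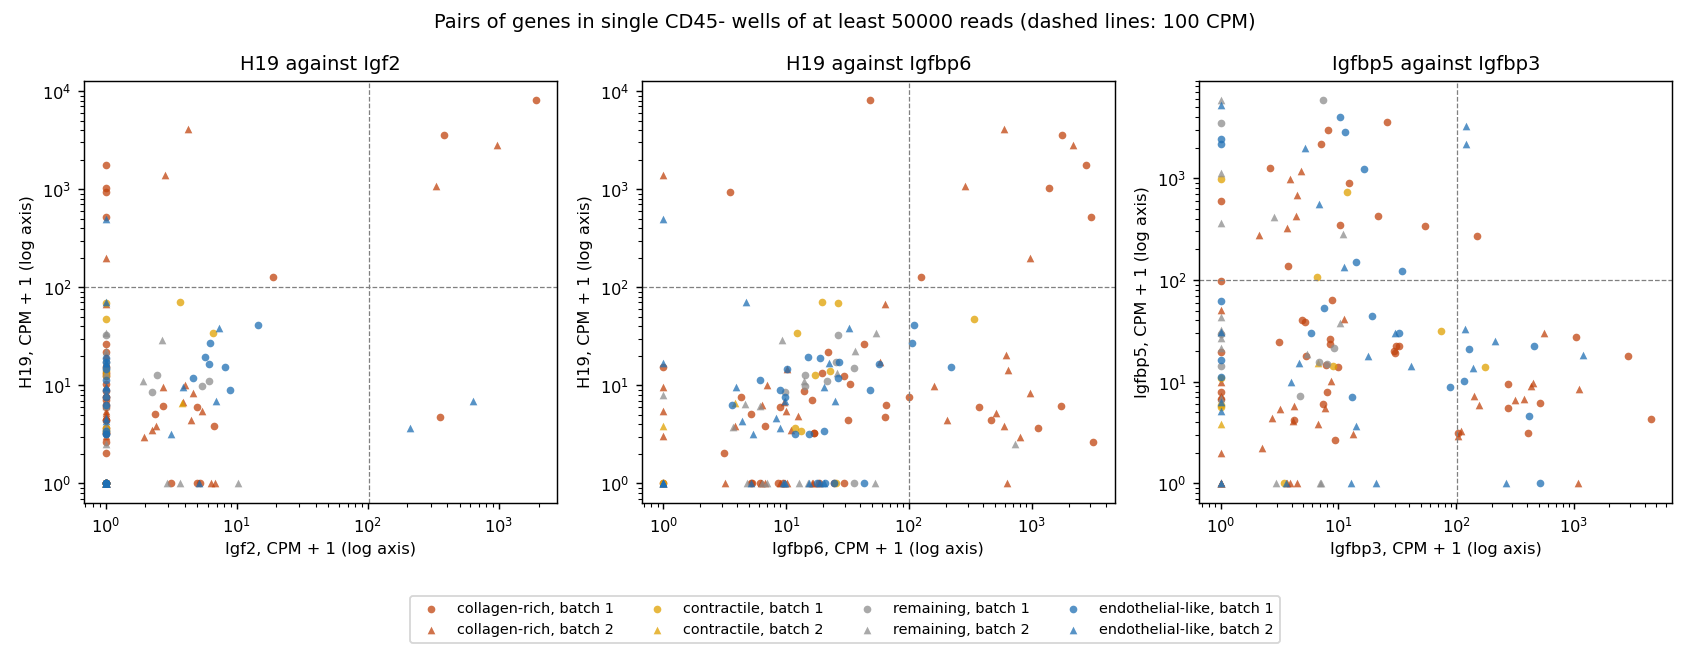
Single CD45- wells of at least 50000 reads plotted for H19 against Igf2 (left), H19 against Igfbp6 (middle) and Igfbp5 against Igfbp3 (right), in CPM + 1 on log axes, with colour for the class, shape for the batch and dashed lines at 100 CPM. The upper right of the left panel holds 4 collagen-rich wells, that of the middle panel 9, and that of the right panel 3 wells of 2 classes.

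Few CD45- wells held both Igfbp3 and Igfbp5 at 100 CPM. Of the 33 CD45- wells with Igfbp3 at 100 CPM and the 40 with Igfbp5, 3 held both, which is 9.09% of the Igfbp3 wells and 7.5% of the Igfbp5 wells. Within the collagen-rich class 1 well held both of 20 and 17, and within the endothelial-like class 2 wells of 12 and 13. Igfbp5 reached 100 CPM in only 40 of all 161 CD45- wells, so most Igfbp3 wells would lack it in any case. Counts this small do not show whether the 2 genes keep apart. Igfbp3 and Igfbp4 met more often in collagen-rich wells, in 14 wells, of 20 with Igfbp3 and 38 with Igfbp4 (36.8% of these). Igfbp7 was at 100 CPM in 18 of the 20 Igfbp3 wells, 33 of the 38 Igfbp4 wells, 14 of the 17 Igfbp5 wells and 21 of the 23 Igfbp6 wells, where it was at that level in 67 of all 78.

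Collagen-rich wells, which were also the deeper ones, held more of the 8 genes at once. At 100 CPM, 34 of the 78 collagen-rich wells had 3 or more of them, against 4 of the 45 endothelial-like wells, and 4 and 13 wells had none. Of the 8 genes 4 were already called higher in the collagen-rich class. The same count over all genes is not given here, so it is not a result about these genes. The widest was collagen-rich well 78 of batch 1, with 7 of the 8, all but Igfbp5, and the next was well 42 of batch 2 with 6. In CD45+, 110 of the 154 wells had none of the 8 at 100 CPM.

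For each gene the 3 genes with the most similar level over CD45- wells were found among 1946 or 1947 candidates by the smaller of the Spearman coefficients in the 2 batches. Igfbp7 had the closest, with Col1a2 at 0.61, Bgn (biglycan, a matrix proteoglycan) at 0.58 and Col3a1 at 0.54. Igfbp4 was most like Dcn (decorin, another matrix proteoglycan) at 0.42, Fstl1 at 0.40 and Col3a1 at 0.35. Igfbp6 was most like Mfap5 (a microfibril protein) at 0.38, Nucb2 at 0.36 and Vkorc1 at 0.35. Igfbp5 was most like Nostrin (an endothelial nitric oxide synthase trafficking protein) at 0.32, Ednrb (an endothelin receptor) at 0.31 and Gja4 (a connexin of endothelial junctions) at 0.28. The closest genes of Igf1 (Sod3, 0.32), Igf2 (Ddx42, 0.29) and Igfbp3 (Eva1b, 0.24) had coefficients no higher than that of Nostrin with Igfbp5.

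Between batch 1 and batch 2 within the CD45- gate, 0 of the 8 genes were past 4-fold, where 28.7% of the 12097 genes tested were. That share covers genes from 1 CPM on average, whereas the 8 genes stood at 25.8 to 1171 CPM in this gate. It was not matched on level, so it does not show the 8 genes to be unusually steady. The log2 ratio of batch 1 over batch 2 ran from -0.80 for Igfbp4 to 1.69 for Igf1. In the CD45+ gate Igfbp5 had 47.1 CPM in batch 1 and 0.878 CPM in batch 2 (log2 ratio 4.68), and H19 had 0.113 CPM in batch 1 and 84.5 CPM in batch 2 (log2 ratio -6.26). At equal depth 7 of the 8 genes had a larger share of wells with a read in CD45- than in CD45+ in both batches. The exception was Igf1, with 40.5 and 25.6% of CD45- wells and 11.8 and 33.3% of CD45+ wells. The same comparison over all genes is not given here, so the count is not a result about these genes. Kept CD45- wells had medians of 3707 and 3572 genes with a read, against 2448.5 and 2711 in CD45+.

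The rest of the IGF system was covered by a list of 29 genes, of which 22 passed the filter on low values. Of these, 6 were called higher in CD45- and 0 lower, and 5 were called higher in collagen-rich than in endothelial-like wells and 0 lower, beside the shares of 12.9 and 12.2% over all genes tested. The list medians were 1.39 and 2.34 between the gates and 1.78 and 1.89 between the classes. Many of these calls rested on 1 well: 3 of the 6 gate calls and 3 of the 5 class calls were lost when a single well was left out.

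Of the receptors, Igf1r, through which both ligands signal, stood at 38.3 and 4.66 CPM in CD45- and at 11.8 and 0.422 CPM in CD45+, with log2 ratios of 1.62 and 1.99, and was not called. These levels rest on few wells: without well 68 CD45- batch 2 stood at 1.63 CPM, and without well 38, which held 97.1% of the reads, CD45+ batch 1 stood at 0.343 CPM. Igf2r stood at 114 and 15.3 CPM in collagen-rich wells, against 5.30 and 1.34 CPM in endothelial-like wells, and was called between the classes with ratios of 4.19 and 2.80, but the batch 2 ratio was 0.21 without well 7 and 3.80 without well 26. Ghr, the growth hormone receptor, stood at 38.9 and 17.4 CPM in CD45- and at 0.529 and 0.0703 CPM in CD45+, with ratios of 4.71 and 4.11, and the batch 2 ratio was 3.49 without well 85. The batch 2 CD45+ value rests on 2 reads, and the plain ratio was 248 with an interval of 68.4 to 2055.

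Among genes that act on binding proteins, Htra1, a secreted serine protease that cleaves some of them, stood at 55.7 and 27.7 CPM in CD45- and at 0.151 and 0.105 CPM in CD45+, from 4 and 3 reads. The plain batch 2 ratio was 263 with an interval of 89.7 to 1277. Its log2 ratios were 5.62 and 4.70 between the gates and 5.33 and 4.46 between the classes, and the batch 2 class ratio was 3.87 without well 44 and 3.84 without well 96. Stc2, an inhibitor of the IGFBP4 protease PAPP-A, was called in both comparisons, but without well 8 of batch 1 its gate ratio was 0.46 and its class ratio -0.23. The batch 2 ratios were 4.13 between the gates without well 59 and 1.85 between the classes without well 48, so each call rests on single wells. Igfbp2, another binding protein gene, had 1 read in CD45- batch 1 and 39.3 CPM in CD45- batch 2, of which 62.6% lay in well 44.

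Among other imprinted genes, Ndn stood at 28.1 and 72.5 CPM in CD45-, against 1 and 0 reads in CD45+. The plain ratio was 745 with an interval of 133 to 29473 in batch 1, and against a floor of 3 reads per plate Ndn was at least 688-fold higher in CD45- in batch 2. Its batch 1 log2 ratio was 4.81, and 4.15 without well 48. Peg3 stood at 54.7 and 136 CPM in CD45- and at 0.151 and 26.8 CPM in CD45+, with ratios of 5.60 and 2.29. As for H19, the batch 2 CD45+ reads of Peg3 were nearly all, 96.9%, in collagen-rich well 18, and the ratio was 6.18 without it. The batch 2 ratio was 1.92 without CD45- well 34 and 1.85 without CD45- well 42, which ends the call. Between the classes Peg3 had ratios of 4.87 and 3.52, with 4.26 in batch 1 without well 58 and 4.87 in batch 2 without well 90. Cdkn1c was called in CD45- with ratios of 2.20 and 5.26, but the batch 1 ratio was 0.94 without well 23, 1.62 without well 71 and 3.90 without CD45+ well 86, and the batch 2 ratio was 4.34 without well 39. Irs2, an adaptor of the IGF and insulin receptors, was called between the classes with ratios of 4.09 and 2.80, which were 0.38 without well 61 and 0.34 without well 45.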

How the data were processed

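The data were single-cell FACS-seq libraries, 96 wells in each of 4 plates. The deposited tables hold raw counts of reads for each gene in each well, going by their values, which are whole numbers. Complementary DNA was made with a Clontech SMARTer kit and sequenced in pairs of 50 bases, per the labels' protocols. STAR (listed as 3.0.4), Subread and featureCounts 1.4.5 were named, per the submitters' processing notes. Their roles, the genome build, strand use and molecular identifiers are not given in the sources used here, so reads were not taken as molecules.

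Repeated gene rows (598 of 41192 lines in batch 1 and 595 of 41228 in batch 2, with 2.39 and 2.42% of counts) were dropped, and the 40594 genes of both tables kept. Wells held 5323 to 1246070 reads, and 16 wells of 5323 to 9740 reads were left out. Among wells of at least 50000 reads, the highest correlation of 2 wells of a plate was 0.69, so none of these was a copy of another on its plate. Shallower wells and pairs across plates were not compared. Reads were summed per plate or class and scaled to CPM, with numpy 2.4.6, pandas 2.3.3 and scipy 1.17.1 in Python 3.11.15. Background counts used genes of at least 1 CPM on average. Median depths of the thinned wells were 302826 and 348004 reads in CD45- and 287380 and 302747 reads in CD45+. Wells of a plate are not independent samples, so no test was run.

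Genes named are the 8 members, the IGF system list, overlapping genes and the 3 most similar genes of each member. Members, lists and marker limits were chosen with earlier results of these data known. Alternatives covered scaling, with edgeR 4.0.16 TMM factors, in R 4.3.3, the pseudocount, filters, fold, class limits, thinning depth and wells left out. No doublet caller was run.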

Additional observations from a re-analysis of the deposited data

Results flagged for a closer look

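The ratio of Igf1 between the gates had opposite signs in the 2 batches, with a log2 ratio of CD45- over CD45+ of 0.82 in batch 1 and -1.45 in batch 2. The ratio of Igfbp3 between collagen-rich and endothelial-like CD45- wells did so too, with 2.06 in batch 1 and -0.20 in batch 2, as did that of Igf2, with 4.31 in batch 1 and -1.15 in batch 2. Each batch has 1 plate per gate, so the difference between the batches was not tested. Opposite signs were common in these data, at 34.7% of genes between the gates and 36.2% between the classes. Single wells moved these values. The Igf1 ratio of batch 1 was 1.91 without CD45+ well 95, the Igfbp3 ratio of batch 2 was 1.41 without endothelial-like well 72, and the Igf2 ratio of batch 2 was 1.21 without endothelial-like well 24.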

How the results depend on the processing

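No paired analysis was possible because the results come from no test and well numbers only name wells; gates and classes were compared within each batch. The number of genes called higher in CD45- was 4 and ranged from 3 to 6 under the other settings, except that a 2-fold limit gave 7. The number called higher in collagen-rich than in endothelial-like wells was 4 and ranged from 3 to 5, and the number called higher in endothelial-like wells was 0, except that a 2-fold limit gave 1, Igfbp5. Leaving out each well in turn, an alternative chosen after seeing the data, gave 4 to 6 and 3 to 5 calls. Leaving out the collagen-rich, endothelial-like and contractile wells of CD45+, or well 18 of its batch 2 alone, both also chosen afterwards, gave 6 calls. With TMM scaling the count stayed at 4, while the median of all genes moved by -0.29 and -0.46 on the log2 scale. The share of higher among all gate calls was 74.9% and 66.5% with TMM. All 176 gate ratios of single genes kept their sign. They include the setting with no filter on low values, where the ratios equal the reported ones and could not change. Of 128 class ratios 124 kept their sign. The 4 others were the batch 2 ratio of Igfbp3, -0.20 as reported, with 0.21 at 2 endothelial markers, 0.19 at a collagen sum of 10000 CPM, 0.41 for the mean of wells and 0.99 without the top wells. The cause was not tested. Single wells and 1 plate per gate and batch limit these values, and wells under 50000 reads were too shallow for classes and shares.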
